A study of Sus scrofa with 3 samples.

Results

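The family of miR-15, miR-16, miR-195 and miR-497 was represented by 5 porcine mature microRNAs, ssc-miR-15a, ssc-miR-15b, ssc-miR-16, ssc-miR-195 and ssc-miR-497, out of 276 porcine mature names in the 3 small RNA libraries. Members were chosen by name alone, as every porcine mature miRNA that bears the number of miR-15, miR-16, miR-195 or miR-497, and all 5 were found in every library. The libraries came from the psoas major, a loin muscle, of castrated male Landrace × Large White × Duroc hybrid pigs slaughtered when 63, 98 or 161 d old. Equal amounts of RNA from 6 pigs went into the pool of each age, so every age was 1 library of different animals, and the feed was changed with body weight, so that age and feed cannot be told apart. With 1 library per age no difference in the sequencing had a replicate check. Beside the sequencing, the study measured some miRNAs by stem-loop RT-qPCR at the same ages, ssc-miR-195 among them. It describes their trends as close to those of the sequencing. All intervals below are 95% intervals that cover counting error only.

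MicroRNAs of this family are short RNAs that guide a silencing complex to messenger RNAs through a stretch near their 5′ end, the seed (bases 2 to 8). The group is known for holding back the cell cycle, with cyclins D and E, their kinases and the survival factor BCL2 among its textbook targets. Its genes lie in pairs, miR-15a with one copy of miR-16, miR-15b with the other copy, and miR-497 with miR-195, and each pair is processed from a common primary transcript. In heart muscle miR-195 and its relatives are known to accumulate after birth, when cardiac muscle cells leave the cell cycle.

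The annotated mature sequences are shown because the 5 members differ only outside the seed. The seed is in capitals, and the sequences are written 5′ to 3′ with T for U.
ssc-miR-15a: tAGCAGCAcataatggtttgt
ssc-miR-15b: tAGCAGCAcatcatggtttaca
ssc-miR-16: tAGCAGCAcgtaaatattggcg
ssc-miR-195: tAGCAGCAcagaaatattggc
ssc-miR-497: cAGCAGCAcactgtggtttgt
The 5 members had 1 seed in common. Of the 276 porcine mature sequences, 6 (2.17%) carried it, the sixth being ssc-miR-424-5p. Counted from 1 at the 5′ end, ssc-miR-16 and ssc-miR-195 had the same base at 19 of 21 positions and differed by G10A and T11G. Between ssc-miR-15a and ssc-miR-15b 18 of 21 positions were equal, with A12C, G20A and T21C. ssc-miR-497 was closest in its 3′ part to ssc-miR-15a, with 17 of 21 positions equal and T1C, T11C, A12T and A13G as differences. ssc-miR-15a and ssc-miR-16, which are made together, were equal at 15 of 21 positions.

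The pig genome build was not given in the sources used here, and positions are those of the files. The hairpin of miR-15b lay on chromosome 13 at 108388133 to 108388230 and that of ssc-mir-16-1 at 108388277 to 108388375, both on the plus strand and 46 bases apart. In the RefSeq annotation of assembly Sscrofa11.1 both genes lie within SMC4, which encodes a condensin subunit used to compact chromosomes in mitosis. The hairpins of miR-497 (54717009 to 54717121) and miR-195 (54717310 to 54717403) were on the plus strand of chromosome 12, 188 bases apart, and in Sscrofa11.1 both fall in a long non-coding RNA gene. Those of miR-15a (70411 to 70505) and ssc-mir-16-2 (70550 to 70641) were 44 bases apart on a scaffold that the files assign to no chromosome, and no annotated gene surrounds them in Sscrofa11.1. The mature miR-16 of both hairpins is identical, so its reads were divided between the hairpins by the authors' pipeline, and the share from each cluster cannot be told apart.

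The files held 1464699, 2418187 and 2242716 reads assigned to miRNAs at 63, 98 and 161 d. These totals are not the depth of the libraries, and levels below are given per 1000000 of them, as CPM. A count of 3 reads, taken as the floor, equals 2.05, 1.24 and 1.34 CPM in the order of age, far under every member. The label of the tissue was checked against its known miRNAs, and the 8 porcine names of the skeletal muscle list (miR-1, miR-133a, miR-133b, miR-206, miR-208b and miR-499) summed to 450735, 401249 and 466147 CPM. Most of this sum was ssc-miR-133a-3p, at 432681, 361663 and 439710 CPM. From 63 to 98 d the sum was at 0.890-fold, while the median fold of the 8 names was 1.53.

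Taken as a whole, the family was in CPM about 2 times as abundant at 98 d as at 63 d and lay between these levels at 161 d. Its summed level was 5326, 10281 and 7958 CPM in the order of age, from 7801, 24861 and 17847 reads. The fold was 1.93 (1.88 to 1.98) from 63 to 98 d, 0.774 (0.759 to 0.789) from 98 to 161 d and 1.49 (1.45 to 1.53) from 63 to 161 d. The median fold of all porcine names with at least 10 reads in the libraries compared was 1.22, 0.807 and 1.01 for the same pairs. Relative to that median the family stood at 1.58, 0.959 and 1.48, so its level at 161 d relative to 98 d was close to that of the typical miRNA. The size of the family's folds depended on the scaling. From 63 to 98 d it was 1.71 without miR-133a in the total, 1.67 with trimmed means (edgeR TMM) and 1.59 with median ratios (DESeq2). From 98 to 161 d these scalings gave 0.882, 0.941 and 0.960. As these are whole-muscle libraries, fewer cells of a type and less RNA per cell cannot be told apart.

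ssc-miR-16 made up most of this sum. Its level was 4583, 8925 and 6863 CPM at 63, 98 and 161 d, from 6712, 21582 and 15393 reads. It ranked 25, 18 and 18 among the porcine mature miRNAs and held 86.0% (85.3 to 86.8), 86.8% (86.4 to 87.2) and 86.2% (85.7 to 86.7) of the family's reads. These shares differed by less than 1 percentage point while the family's level in CPM nearly doubled from 63 to 98 d. The fold of ssc-miR-16 from 63 to 98 d was 1.95 (1.89 to 2.00), just under the 2-fold limit used here. The study used the same fold limit for a changed miRNA, together with a p-value limit that is not applied here.

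ssc-miR-195 was the member with the largest fold. It had 112 CPM in the 63 d library (164 reads), 419 CPM in the 98 d library (1014 reads) and 349 CPM in the 161 d library (783 reads), and the 98 and 161 d libraries both stood more than 3 times above the 63 d library. The fold was 3.75 (3.17 to 4.44) from 63 to 98 d and 3.12 (2.63 to 3.71) from 63 to 161 d. Of 247 porcine names tested from 63 to 98 d it ranked 11 by fold, and of 243 tested from 63 to 161 d it ranked 5. Both ranks place ssc-miR-503 ahead as absent at 63 d, where the reads of that miRNA stood under a bovine name. With those reads ssc-miR-503 was at 2.03-fold and 0.854-fold, below ssc-miR-195. From 98 to 161 d the fold of ssc-miR-195 was 0.833 (0.758 to 0.915).

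ssc-miR-497, made from the same primary transcript, moved less. Its level was 132, 246 and 230.1 CPM in the order of age, from 194, 595 and 516 reads, and the later libraries were close to each other. The fold was 1.86 (1.58 to 2.20) from 63 to 98 d, 0.935 (0.829 to 1.05) from 98 to 161 d and 1.74 (1.47 to 2.06) from 63 to 161 d. The interval of the middle fold includes 1, so a difference between 98 and 161 d was not detectable at this depth.

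ssc-miR-15a followed ssc-miR-16. It was at 313, 564 and 421 CPM in the same order, from 459, 1363 and 945 reads, and was highest in the 98 d library. The folds were 1.80 (1.62 to 2.00) from 63 to 98 d, 0.748 (0.687 to 0.813) from 98 to 161 d and 1.34 (1.20 to 1.51) from 63 to 161 d.

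ssc-miR-15b was the exception. It had 186 CPM in the youngest pigs (272 reads), 127 CPM in the next (307 reads) and 93.6 CPM in the oldest (210 reads), and was thus the only member with its highest level at 63 d. The fold was 0.684 (0.579 to 0.808) from 63 to 98 d, 0.738 (0.616 to 0.882) from 98 to 161 d and 0.504 (0.419 to 0.606) from 63 to 161 d. In the last comparison only 27 of 243 porcine names had a lower fold. Reads under the platypus name oan-miR-15c-5p (55, 151 and 84 in the order of age) differed from ssc-miR-15b only near the 3′ end. They were not counted in it.

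**Figure D1:**
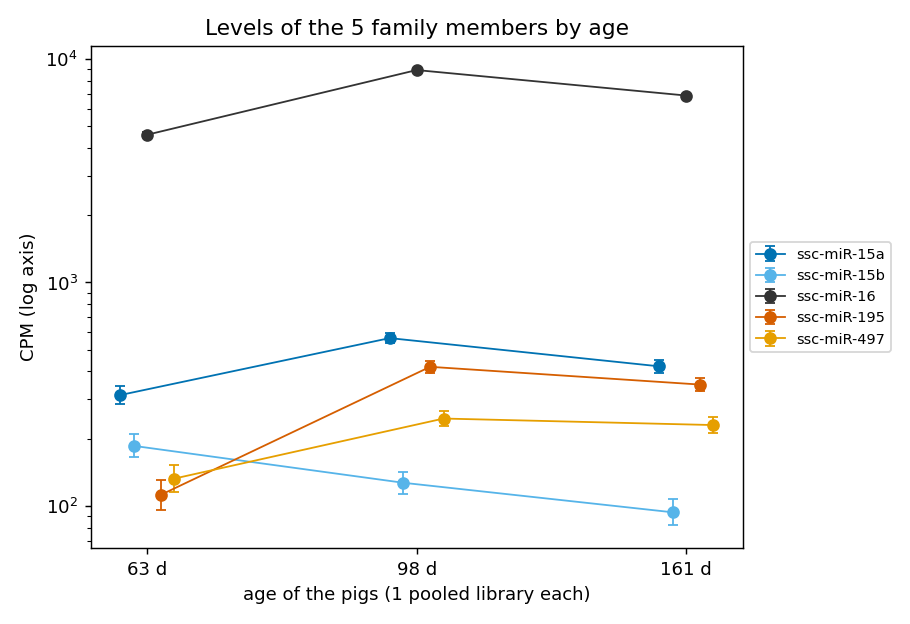
Level of each member in CPM on a log axis against age, with 1 pooled library per age; points are the libraries, bars the 95% Wilson intervals of counting error, and lines only join the points of 1 member. ssc-miR-16 lies at 4583 to 8925, ssc-miR-195 passes from the lowest place at 63 d to the third at 98 and 161 d, and ssc-miR-15b is lower at each later age.

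The order of the members changed between 63 and 98 d and not afterwards. At 63 d it was ssc-miR-16, ssc-miR-15a, ssc-miR-15b, ssc-miR-497 and ssc-miR-195 from highest to lowest. The last neighbours were not separated by counting error, with intervals of 115 to 152 CPM for ssc-miR-497 and 96.1 to 130 for ssc-miR-195. At 98 and 161 d it was ssc-miR-16, ssc-miR-15a, ssc-miR-195, ssc-miR-497 and ssc-miR-15b, and no intervals of neighbours overlapped. The closest were ssc-miR-15a (395 to 449) and ssc-miR-195 (326 to 374) at 161 d.

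Few members passed the 2-fold limit. From 63 to 98 d 1 of 5 members, ssc-miR-195, was above 2-fold and none was below 0.5-fold, where 13.8% of the 247 names tested were above and 3.24% below. From 98 to 161 d no member was past 2-fold in either direction, against 2.43% of 247 names above 2-fold and 12.1% below 0.5-fold. From 63 to 161 d 1 of 5 was above 2-fold, again ssc-miR-195, against 7.41% of 243 names. That share counts ssc-miR-503 as above, since its 63 d reads stood under a bovine name. ssc-miR-195 alone was above 2-fold in these pairs under each scaling tried. None was below 0.5-fold in that pair against 11.1%, but ssc-miR-15b at 0.504 lay next to the limit and passed it with 0.498 when scaled to porcine mature reads, 0.497 for reads without mapping error and 0.461 for copies of the most frequent read. The median fold of the members was 1.86, 0.769 and 1.498 for the 3 pairs, beside 1.22, 0.807 and 1.01 for all names tested. The split of all names by direction depended on the scaling. From 63 to 98 d 34 were above 2-fold and 8 below 0.5-fold, against 24 and 16 without miR-133a in the total, 23 and 17 with trimmed means (edgeR TMM) and 17 and 23 with median ratios (DESeq2). From 98 to 161 d the 6 above and 30 below became 12 and 18 with TMM and 13 and 15 with median ratios.

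**Figure D2:**
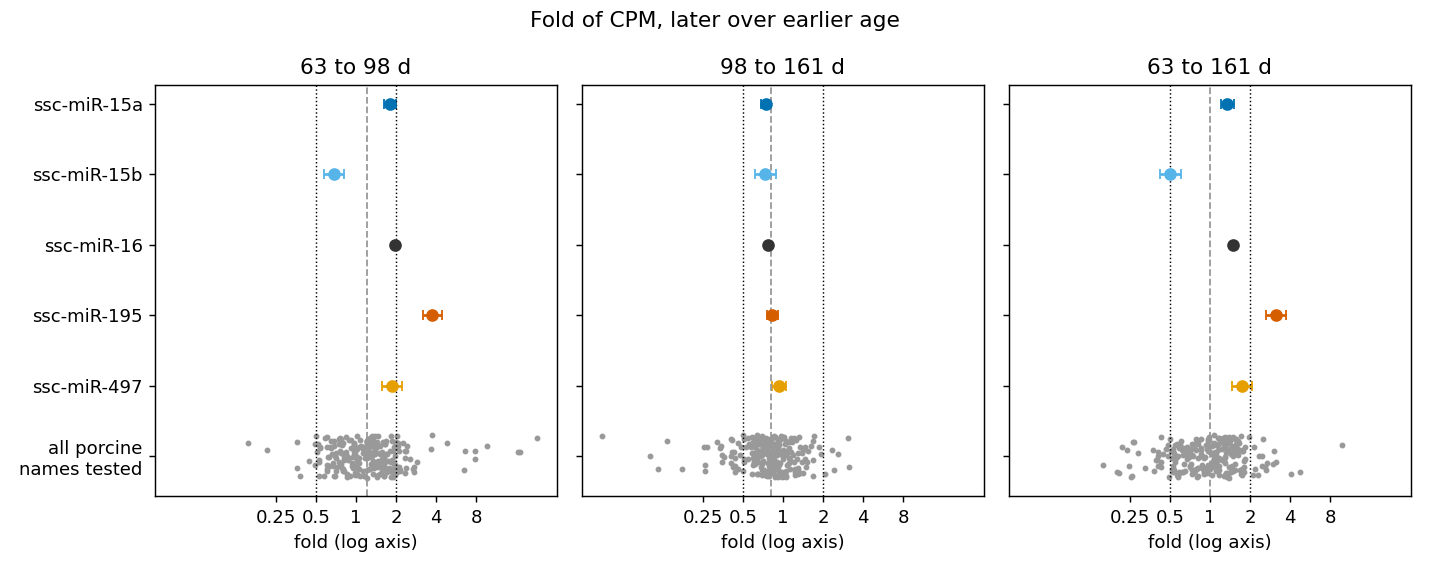
Fold of CPM, later over earlier age, on a log axis for each pair of ages; coloured points are the members with their exact 95% intervals, grey points all porcine names tested (1 name listed at 0 at 63 d is not drawn), the dashed line their median and the dotted lines 0.5-fold and 2-fold. Among the members only ssc-miR-195 lies beyond a dotted line, at 3.75 from 63 to 98 d and 3.12 from 63 to 161 d.

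The direction of the change from 98 to 161 d depended on the scaling for a pair of members. The miR-133a reads alone took a large part of each library, and leaving them out of the total shifted every fold by -0.17 (log2) from 63 to 98 d and by 0.19 from 98 to 161 d. Scaling by TMM shifted them by -0.21 and 0.28, and by median ratios by -0.28 and 0.31. With these the fold of ssc-miR-497 from 98 to 161 d was 1.07, 1.14 and 1.16, and that of ssc-miR-195 was 1.01 with TMM and 1.03 with median ratios. ssc-miR-15a, ssc-miR-15b and ssc-miR-16 stayed below 1 under all scalings tried. From 63 to 98 d and from 63 to 161 d each member kept its direction under every scaling tried.

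Ratios between members within a library do not depend on the scaling. The ratio of ssc-miR-195 to ssc-miR-497, which share a primary transcript, was 0.845, 1.70 and 1.52 in the order of age. Its change was 2.02-fold (1.59 to 2.56) from 63 to 98 d and 1.79-fold (1.41 to 2.29) from 63 to 161 d (conditional odds ratio with exact interval). From 98 to 161 d the change was 0.890 (0.764 to 1.04), which includes 1. The proportion of these mature forms thus differed beyond counting error between the 63 d library and each later one.

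In the other clusters, ssc-miR-15a and ssc-miR-15b took different courses relative to miR-16. The ratio of ssc-miR-15a to ssc-miR-16 was 0.0684, 0.0632 and 0.0614 in the order of age, and none of its changes was outside counting error, with 0.924 (0.827 to 1.03) from 63 to 98 d and 0.898 (0.799 to 1.01) from 63 to 161 d. The latter was 0.864 (0.759 to 0.985) when only reads without mapping error were counted. The ratio of ssc-miR-15b to ssc-miR-16 was 0.0405, 0.0142 and 0.0136. It changed by a factor of 0.351 (0.296 to 0.416) from 63 to 98 d and stayed within counting error from 98 to 161 d, at 0.959 (0.800 to 1.15). Since miR-16 comes from both clusters, these ratios describe mature molecules and not the output of 1 gene.

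As shares of the family's reads, ssc-miR-15b went from 3.49% (3.10 to 3.92) at 63 d to 1.23% (1.10 to 1.38) at 98 d and 1.18% (1.03 to 1.35) at 161 d. ssc-miR-195 went from 2.10% (1.81 to 2.45) to 4.08% (3.84 to 4.33) and 4.39% (4.10 to 4.70). ssc-miR-15a held 5.88%, 5.48% and 5.30% and ssc-miR-497 2.49%, 2.39% and 2.89%. The places of ssc-miR-15b and ssc-miR-195 were thus exchanged between the 63 d library and the later ones.

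**Figure D3:**
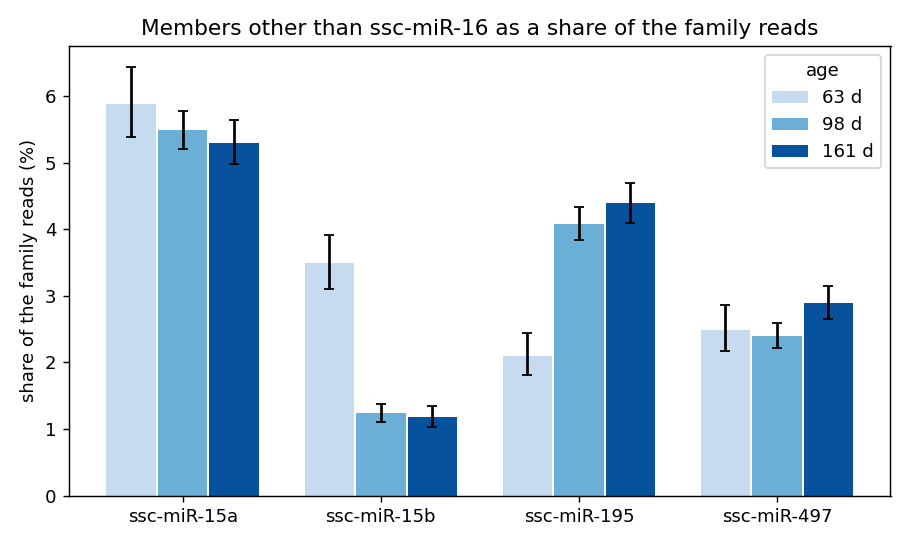
Share of the family's reads in percent for the members other than ssc-miR-16, with 1 bar per age and 95% Wilson intervals of counting error. The bar of ssc-miR-15b is at 3.49% at 63 d and at 1.23% and 1.18% later, and that of ssc-miR-195 is at 2.10% and then at 4.08% and 4.39%.

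The opposite arms of the hairpins were also sequenced, mostly under human names. The arm of miR-15b was the most frequent relative to its partner. It had 55, 49 and 13 reads in the order of age, which were 16.8% (13.2 to 21.3), 13.8% (10.6 to 17.7) and 5.83% (3.44 to 9.72) of the hairpin's reads on both arms. In CPM the fold was 0.540 (0.360 to 0.808) from 63 to 98 d, 0.286 (0.142 to 0.535) from 98 to 161 d and 0.154 (0.0774 to 0.286) from 63 to 161 d. The ratio of the 3′ arm to ssc-miR-15b changed by 0.790 (0.508 to 1.23) from 63 to 98 d and by 0.388 (0.188 to 0.749) from 98 to 161 d. The 3′ arm was therefore lower at 161 d by more than its partner.

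Its most frequent read is given here beside the stretch of the pig hairpin it was aligned to, since they differ in the first base (C1T, in capitals).
most frequent read of the miR-15b 3′ arm: Tgaatcattatttgctgctcta
pig hairpin: Cgaatcattatttgctgctcta
The same read led in all 3 libraries, and only 6 of 55, 14 of 49 and 3 of 13 reads of this arm mapped without error.

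The 3′ arm of ssc-mir-16-1 had 20, 70 and 31 reads, or 0.593%, 0.645% and 0.402% of the reads of that hairpin. Its fold was 2.12 (1.27 to 3.68) from 63 to 98 d and 0.478 (0.302 to 0.739) from 98 to 161 d. The 3′ arm of ssc-mir-16-2 had 1 read at 63 d and 1 at 98 d and was not listed at 161 d. That of miR-195 had 2, 3 and 1 reads, that of miR-497 had 2 reads at 98 d and was not listed at the other ages, and none was listed for miR-15a. As the 5′ reads of miR-16 were divided between its hairpins, the percentages for ssc-mir-16-1 rest on that division.

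**Figure D4:**
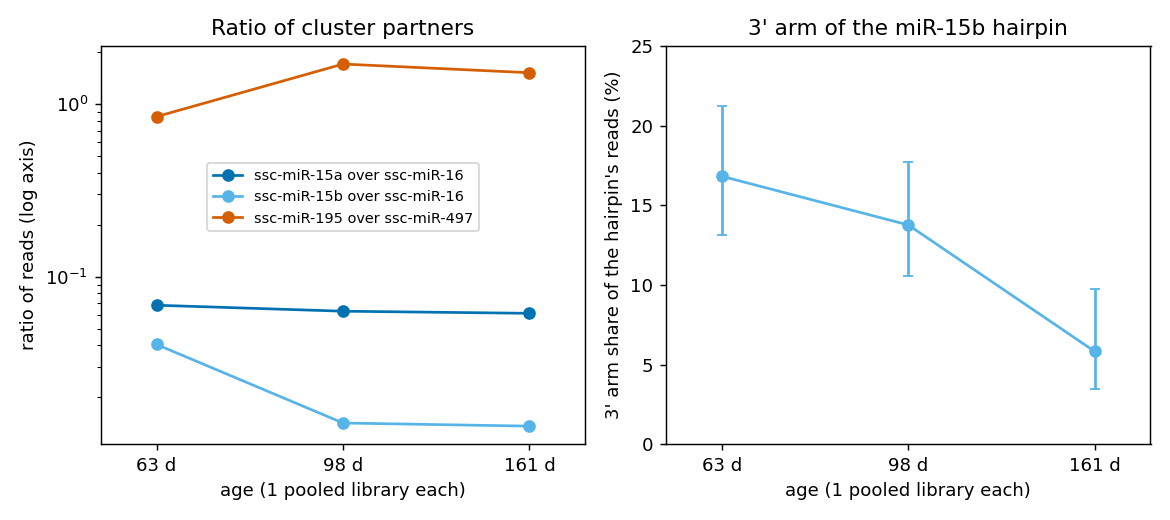
Left, ratio of reads between members of a cluster on a log axis, by age. Right, share of the 3′ arm in the reads of the miR-15b hairpin in percent, with 95% Wilson intervals of counting error. The ratio of ssc-miR-195 to ssc-miR-497 goes from 0.845 to 1.70 and 1.52, that of ssc-miR-15b to ssc-miR-16 from 0.0405 to 0.0142 and 0.0136, and the 3′ arm from 16.8% to 5.83%.

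The 3′ ends differed within the family. For ssc-miR-15a, ssc-miR-15b and ssc-miR-16 the most frequent read equalled the annotated sequence at each age. For ssc-miR-195 and ssc-miR-497 the most frequent read was 1 base longer than annotated at 63 and 98 d (22 bases) and equal to the annotated 21 bases at 161 d. The longer forms are shown with the seed in capitals.
ssc-miR-195, 63 and 98 d: tAGCAGCAcagaaatattggca
ssc-miR-497, 63 and 98 d: cAGCAGCAcactgtggtttgta
The most frequent read held 49.4%, 45.5% and 44.8% of the reads of ssc-miR-195 and 42.8%, 42.2% and 43.0% of those of ssc-miR-497 in the order of age. For ssc-miR-16 it held 81.8%, 80.7% and 80.1%, a larger share at each age. How the reads of ssc-miR-195 split between the forms at each age was not analysed here, since the files give copies of the most frequent read only.

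Reads with a mapping error made up 11.26%, 11.01% and 11.14% of ssc-miR-16, 18.95%, 19.74% and 21.90% of ssc-miR-15a and 6.25%, 11.1% and 8.10% of ssc-miR-15b. For ssc-miR-195 they were 15.2%, 15.2% and 13.2%. For ssc-miR-497 they were 19.6% at 63 d and 12.9% and 14.9% later, and without them its fold from 63 to 98 d was 2.04, past the limit that 1.86 did not reach.

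The wider group, whose sequences resemble the family's seed wholly or in part, was given by its 4 porcine names. ssc-miR-103, the largest of it and a regulator of metabolism, was at 1838, 1499 and 1455 CPM in the order of age, and its close relative ssc-miR-107 at 399.4, 423.6 and 412.3. ssc-miR-424-5p, which has the family's seed and is known to act on the cell cycle, was at 88.8, 181.1 and 103.4, with folds of 2.04 and 0.571 over the 2 intervals. Reads with this seed under the bovine name bta-miR-424-5p, at 60.1, 87.7 and 45.0 CPM, were not added to it. The fold of 2.04, just past the limit, and the counts below that rest on it leave these reads out. ssc-miR-503, encoded beside miR-424, was at 17.8, 36.0 and 15.2, where the 63 d value stood under a bovine name for the same read. Over this group 2 of 4 names were above 2-fold from 63 to 98 d and 1 of 4 was below 0.5-fold from 98 to 161 d, where 13.8% of all names were above and 12.1% below in these pairs. The former count became 0 of 4 without miR-133a, with TMM and with median ratios, and the latter 0 of 4 with TMM and with median ratios. The levels of ssc-miR-424-5p and ssc-miR-503 at 161 d were thus near those at 63 d, whereas ssc-miR-195 and ssc-miR-497 were at 3.12 and 1.74 times theirs. All reads whose sequence carried the family's seed, under any name, summed to 5529, 10652 and 8186 CPM, of which the members held 96.3% to 97.2%.

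Other miRNAs known to act on the cell cycle were compared by counts. The list of those known to restrain it held 16 porcine names (let-7, miR-26, miR-29, miR-34, miR-424 and miR-503). Of these, 3 were above 2-fold from 63 to 98 d. None was from 98 to 161 d, against 2.43% of all names, and none from 63 to 161 d, against 7.41%. From 98 to 161 d 1 was below 0.5-fold, against 12.1% of all names. With TMM and with median ratios this pair had 1 name above 2-fold and none below 0.5-fold. Median ratios also put 1 name below 0.5-fold from 63 to 98 d. The 3 names above 2-fold from 63 to 98 d lay just past the limit, at 2.01 to 2.04, beside 13.8% of all names above it. They became 2 with porcine reads as the total and 0 without miR-133a, with TMM and with median ratios. Among them ssc-miR-424-5p was again counted without the reads under the bovine name. The median folds of the list were 1.24, 0.796 and 0.872. Of 12 tested names of the miR-17-92 group and its paralogues, known to promote proliferation, none was past 2-fold from 63 to 98 d. From 98 to 161 d 3 were below 0.5-fold, against 12.1% of all names. From 63 to 161 d 5 were below, against 11.1%, and 1 was above, against 7.41%. The name above was ssc-miR-18b, with 4 reads at 63 d and 15 at 161 d. From 63 to 98 d 1 of the 12 names was below 0.5-fold under each other scaling, and from 98 to 161 d 2 were with TMM and 1 with median ratios. Their median folds were 0.947, 0.613 and 0.619. Beside these, the medians of the family were 1.86, 0.769 and 1.498.

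The 3 miRNAs nearest to each member were taken among the 140 other porcine names with at least 100 reads in every library, by the distance between their pairs of log2 folds (63 to 98 d and 98 to 161 d). For ssc-miR-15a they were ssc-miR-451, the miRNA of red blood cells, at a distance of 0.033, ssc-miR-22-5p at 0.061 and ssc-miR-205 at 0.12. For ssc-miR-16 they were ssc-miR-30b-5p (0.076), ssc-miR-205 (0.10) and ssc-miR-99a (0.11). For ssc-miR-497 they were ssc-miR-137 (0.010), ssc-miR-365-3p (0.035) and ssc-miR-10a-5p (0.11), and for ssc-miR-15b ssc-miR-149 (0.15), ssc-let-7d-3p (0.15) and ssc-miR-532-5p (0.16). ssc-miR-195 had no close neighbour, the nearest being ssc-miR-1, a muscle miRNA, at 0.63, followed by ssc-miR-450b-5p at 0.70 and ssc-miR-374a-5p at 0.81. The likeness rests on 3 libraries that all names share.

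**Figure D5:**
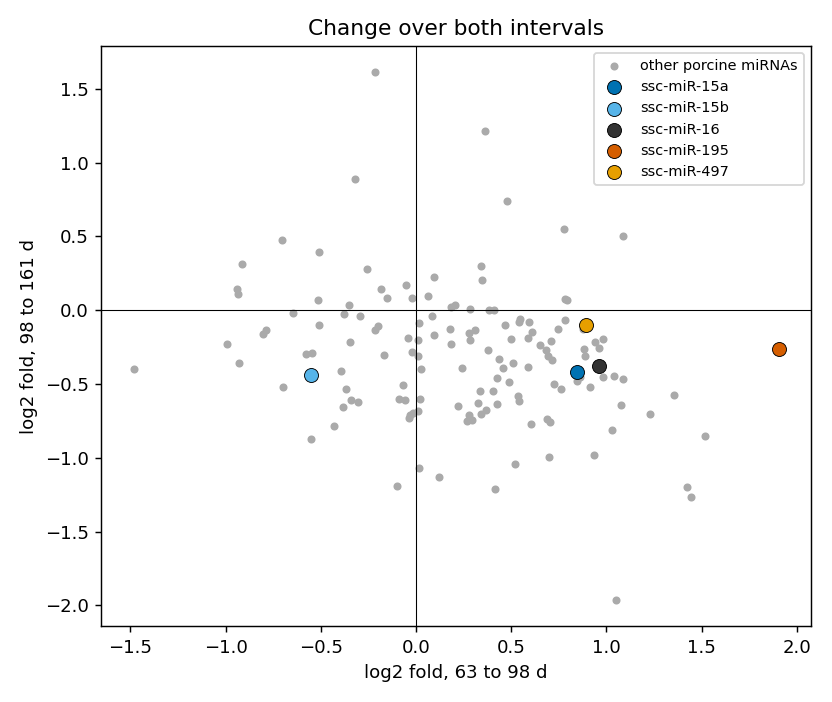
Log2 fold from 63 to 98 d against log2 fold from 98 to 161 d for every porcine name with at least 100 reads in each library; grey points are the 140 other names and coloured points the members. ssc-miR-15a, ssc-miR-16 and ssc-miR-497 lie together at 0.85 to 0.96 on the x axis, ssc-miR-195 lies alone at 1.90, and ssc-miR-15b lies at -0.55.

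Markers of other cells of the muscle moved between the libraries as well. The summed level of the red blood cell miRNAs (both of 2 names detected, miR-144 and miR-451) was 808, 1491 and 1069 CPM in the order of age, or 1.85-fold and then 0.717-fold. The endothelial list (2 of 2 names of miR-126) summed to 5833, 9769 and 6759, with folds of 1.67 and 0.692. The white blood cell list (4 names of miR-142, miR-150 and miR-155, with miR-223 present only under names of other species) summed to 1185, 1622 and 1088. The fibroblast list (4 names of miR-199a, miR-199b and miR-214) summed to 7703, 9162 and 7593, and the smooth muscle list (4 names of miR-143 and miR-145) to 9415, 11874 and 27273. None of these listed porcine names was at 0 in any library. In CPM the sums of all these lists except smooth muscle were highest at 98 d, as were the levels of ssc-miR-15a and ssc-miR-16. The smooth muscle sum was highest at 161 d. The red blood cell and endothelial folds were the nearest to those of these miRNAs from 63 to 98 d. The part of the cells of these lists in the result was not tested. From 63 to 98 d the fold of ssc-miR-195 was above each of these summed folds, and that of ssc-miR-15b was below 1. The sums of all 5 lists were higher at 98 d, except that the fibroblast list was at 0.977 with median ratios. Single names went the other way, with ssc-miR-150 at 0.939, ssc-miR-143-5p at 0.797 and ssc-miR-145-5p at 0.802. In CPM the other names of the 5 lists were above 1, the lowest being ssc-miR-199a-3p at 1.07. Folds of these single names are given in CPM only, and each other scaling lowered every fold of this pair. The part of these cells in the folds of ssc-miR-195 and ssc-miR-15b was not tested.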

How the data were processed

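Small RNA was sequenced from 1 pooled library per age (HiSeq 2000), and per the labels the authors processed reads with ACGT101-miR v4.2 against miRBase. The genome build is not given in the sources used here. The deposited files give, per miRNA and hairpin, expected counts (reads on any hairpin, divided where a read maps to several) and counts of copies of the most frequent read. Deposited counts were summed over all hairpin rows of a name. At 63 d 121 rows without a printed name, 1 of them a miR-16 hairpin, took the reference name in the same row, which equalled the printed name in all 966 named rows with one. Levels are CPM, counts per 1000000 reads of a file. Folds have exact 95% intervals (Clopper-Pearson, of one count given the sum), ratios of members a conditional odds ratio, shares Wilson intervals. No p-value was possible with 1 library per age. A miRNA counted as changed above 2-fold or below 0.5-fold, over porcine names with at least 10 reads in both libraries together. Alternatives were scaling (porcine reads, no miR-133a, edgeR 4.0.16 TMM, DESeq2 1.42.0 size factors, on rounded counts), hairpin rule, error-free reads, copies, pseudocount 1, minimum reads of 1 or 100 and a limit of 1.5-fold. Scripts were tested on simulated data (Python 3.11.15, scipy 1.17.1, R 4.3.3). Members, lists, the rule for named miRNAs (all members, opposite arms, names of other species, the wider group and the 3 nearest patterns) and tests were chosen with earlier results of these data known.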

Additional observations from a re-analysis of the deposited data

Results flagged for a closer look

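Reads under names of other species with the family's numbers lay outside the comparisons and were above 3 reads in at least 1 library, which is why they are listed. oan-miR-15c-5p, a platypus name, had 290 reads in all (55, 151 and 84 at 63, 98 and 161 d), and its reads differed from ssc-miR-15a by A12C. Against ssc-miR-15b they differed only near the 3′ end, by A20G and in the longer reads also C21T. Which member they came from was not tested, and they were not added to the 272, 307 and 210 reads of ssc-miR-15b. oan-miR-16c-5p had 125 (18, 48 and 59), with T17C and C21A against ssc-miR-16. mmu-miR-195a-5p, a mouse name, had 84 (5, 42 and 37), and its main read held the whole of ssc-miR-195 with additional bases at the 3′ end. oan-miR-15b-5p had 21 (3, 14 and 4). Together these reads were 55.3, 105 and 82.0 CPM, beside 5326, 10281 and 7958 for the porcine members.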

How the results depend on the processing

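No paired analysis was possible because each age had 1 library. The fold of the family sum kept its direction under every alternative tried. From 98 to 161 d ssc-miR-497 turned to 1.07 without miR-133a in the total, 1.14 with TMM and 1.16 with DESeq2 size factors, and ssc-miR-195 to 1.01 and 1.03 with the last 2. The count of members past 2-fold (1, 0 and 1 for the 3 pairs) became 2 from 63 to 98 d with error-free reads, 2 from 63 to 161 d with porcine reads as the total, error-free reads or copies, and 4 and 3 in these pairs at a limit of 1.5-fold. Of all porcine names 42, 36 and 45 were past 2-fold, against 115, 86 and 112 past 1.5-fold and 23, 22 and 27 with a minimum of 100 reads. Error-free reads took the change of the ssc-miR-15a to ssc-miR-16 ratio from 63 to 161 d to 0.864. The share of ssc-miR-16 was 75.5%, 76.7% and 75.8% by its largest hairpin row, 90.1%, 91.0% and 90.7% by copies, and 87.5% and 87.0% at 98 and 161 d by error-free reads. Leaving out the rows without a name at 63 d, an alternative chosen after seeing the data, drops 1 of the miR-16 rows at that age alone. It gave a family fold of 3.39 from 63 to 98 d and 2.62 from 63 to 161 d, 2 members past 2-fold in both, a share of 75.5% for ssc-miR-16 at 63 d and changes of 0.462 and 0.449 of the ssc-miR-15a to ssc-miR-16 ratio. Adding the names of other species was also chosen after seeing the data. The depth limits ssc-miR-195 and ssc-miR-497 at 63 d, with 164 and 194 reads, and the opposite arms, with 70 or fewer.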
